A study of Homo sapiens with 32 samples.

Results

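The 45 genes described here encode proteins that start and carry out DNA replication or that control entry into S phase. They were chosen by name, with earlier results of these data known, so shares of called genes are descriptive. Each is represented by its brightest probe, and all 45 passed the filter on dim probes that left 10598 genes. The cells were PC-3, an established human prostate adenocarcinoma line, treated in flasks and read on 32 single-colour Illumina bead arrays in 12 groups. In the first experiment, 4-Hydro peroxy cyclophosphamide, which the labels call active, was given for 10 h (2 arrays), 24 h (2 arrays) or 48 h (3 arrays), each against 3 arrays of vehicle-treated cells. In the second, inactive cyclophosphamide was given for 10 h (3 arrays), 24 h (3 arrays) or 48 h (2 arrays), each against the same number of vehicle arrays. A dose of 5.5 µM is stated for both compounds in the treatment labels but only for the active one in the study's design, so the dose of cyclophosphamide is less certain. Cyclophosphamide is a prodrug that liver enzymes oxidise, and the hydroperoxy compound releases the oxidised form in culture medium without them.

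Before a cell enters S phase, the origin recognition complex with CDC6 and CDT1 loads the MCM helicase on DNA. Cyclin E and its kinase then start replication, and CDC45, the GINS complex and MCM10 turn the loaded helicase into a moving one. DNA polymerases, the sliding clamp PCNA and its loader RFC follow. E2F transcription factors drive many of these genes at the border of G1 and S, so that their messenger RNA rises and falls with the cell cycle. The active compound forms a mustard that cross-links DNA.

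The promoters of these genes are shown first, because E2F factors are known to bind many of them. RefSeq windows of 250 bases before and 50 after the start (build GRCh38.p14) were matched by symbol to 38 of the 45 genes, MCM4, MCM5, RPA2, RPA3, POLD3, CCNE2 and GINS4 being unmatched. Each window was searched on both strands for 4 words of 8 letters that spell the E2F consensus, TTTCCCGC, TTTGCCGC, TTTGGCGC and TTTCGCGC. Matches on opposite strands can overlap when a TTTGGCGC runs into the reverse of TTTCGCGC. At least 1 word stood in the windows of 22 of the 38 genes, or 57.9%, against 3.31% of all 35116 windows and 6.59% of the 8810 genes tested on the arrays that had a window. The share was 32.1% of 28 further replication proteins with a window, 33.3% of 9 genes of nucleotide supply and 10% of 20 mitotic genes. All 4 MCM subunits with a window held a word, as did 2 of 7 genes of the clamp, its loader and RPA. The 250 bases before the start are printed below, 5′ to 3′ on the gene's strand with the words in capitals, for 6 genes that were lower under the active compound at 24 or 48 h and for CDC25A, which was higher on average. 
MCM6 (chr2:135876444-135876693, minus strand): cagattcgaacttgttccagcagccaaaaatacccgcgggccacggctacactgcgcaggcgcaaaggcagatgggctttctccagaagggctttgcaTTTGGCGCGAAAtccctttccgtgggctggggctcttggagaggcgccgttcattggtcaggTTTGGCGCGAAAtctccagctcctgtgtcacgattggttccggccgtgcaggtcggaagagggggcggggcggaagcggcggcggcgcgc
MCM7 (chr7:100101398-100101647, minus strand): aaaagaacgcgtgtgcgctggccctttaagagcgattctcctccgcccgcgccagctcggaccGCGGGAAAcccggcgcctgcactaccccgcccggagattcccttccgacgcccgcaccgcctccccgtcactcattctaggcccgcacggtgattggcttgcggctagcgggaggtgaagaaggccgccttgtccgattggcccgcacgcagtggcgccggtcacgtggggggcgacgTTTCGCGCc
PCNA (chr20:5126623-5126872, minus strand): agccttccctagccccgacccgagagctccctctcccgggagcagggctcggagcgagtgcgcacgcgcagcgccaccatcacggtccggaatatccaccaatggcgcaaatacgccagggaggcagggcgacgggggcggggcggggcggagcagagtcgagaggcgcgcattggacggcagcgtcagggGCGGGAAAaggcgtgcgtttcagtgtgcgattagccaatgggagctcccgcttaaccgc
GINS2 (chr16:85688955-85689204, minus strand): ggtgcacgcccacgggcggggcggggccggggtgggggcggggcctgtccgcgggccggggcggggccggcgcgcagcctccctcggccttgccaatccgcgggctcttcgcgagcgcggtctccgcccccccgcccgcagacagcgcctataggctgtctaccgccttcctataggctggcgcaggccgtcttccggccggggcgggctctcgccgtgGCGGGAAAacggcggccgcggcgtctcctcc
E2F1 (chr20:33686386-33686635, minus strand): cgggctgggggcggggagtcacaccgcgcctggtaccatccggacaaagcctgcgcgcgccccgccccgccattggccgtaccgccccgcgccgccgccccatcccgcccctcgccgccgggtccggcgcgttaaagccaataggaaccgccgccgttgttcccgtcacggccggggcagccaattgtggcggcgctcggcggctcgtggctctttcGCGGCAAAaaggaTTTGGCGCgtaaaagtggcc
UNG (chr12:109097922-109098171, plus strand, the downstream of its 2 windows): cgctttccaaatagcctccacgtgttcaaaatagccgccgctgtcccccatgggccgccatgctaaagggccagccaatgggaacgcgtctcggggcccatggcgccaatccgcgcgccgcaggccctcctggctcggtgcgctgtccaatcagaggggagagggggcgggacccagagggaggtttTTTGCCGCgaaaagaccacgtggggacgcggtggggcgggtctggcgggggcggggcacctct
CDC25A (chr3:48188418-48188667, minus strand): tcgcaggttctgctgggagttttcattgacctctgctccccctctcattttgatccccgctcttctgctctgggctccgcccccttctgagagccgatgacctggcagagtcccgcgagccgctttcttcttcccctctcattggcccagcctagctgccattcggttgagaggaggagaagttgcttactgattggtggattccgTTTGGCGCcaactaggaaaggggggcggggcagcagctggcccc
MCM6 carried 2 copies of the overlapping pair, which count as 4 matches, the farther one starting 152 bases before the start. E2F1 held 2 words within 33 bases of its own start, and the single word of PCNA stood 59 bases before the start. CDC25A, which moved the other way, held the same word TTTGGCGC as MCM6 and E2F1. Each printed gene held a word. MCM2, MCM3, RFC4 and RFC5, which had a window and were also called lower at 24 or 48 h, are not printed. The printed genes thus do not show how often the lower genes held a word. A match is a string of letters and not a measured binding site.

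The arrays are described by ranges. The 75th percentile of raw intensity was 431 to 656 in the active-compound experiment and 275 to 416 in the other, and the median residual SD of the 45 genes was 0.10 and 0.26 log2 units. Of the genes listed as markers of the line, the keratins KRT8, KRT18 and KRT19 and the mesenchymal filament vimentin (VIM) lay between the 92.1 and 98.2 percentile of probes, and the epithelial cadherin CDH1 was dim at the 23.1 percentile. Of the prostate genes listed as low or absent in PC-3, KLK3 lay at the 14.3 percentile, but TMPRSS2 passed the filter at the 62.6 percentile. Of 5 fibroblast markers 1 passed the filter (COL1A1), and of 5 immune markers 2 did (PTPRC and LYZ, at the 47.4 and 46.4 percentile). Each 10 and 24 h array was placed on an axis from the mean of the other 10 h arrays of its experiment, at -1, to that of the other 24 h arrays, at 1. Being left out of its own axis, an array of the same kind need not lie at -1 or 1, and some arrays lay on the side of the other time. In the inactive-compound experiment these were 4 of 12 arrays, replicate 3 of both groups at 10 h (0.61 treated and 0.50 vehicle) and at 24 h (-1.26 treated and -0.95 vehicle). In the active-compound experiment it was 1 of 10 arrays, vehicle replicate 3 at 10 h (0.39). Most counts of called genes among the 45 that rest on these arrays, and some medians, are given with and without them. Other counts, such as those of positive or negative genes, mostly rest on all arrays. Separate cultures are not named for the replicates, and p-values therefore measure only the spread between these arrays.

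**Figure D1:**
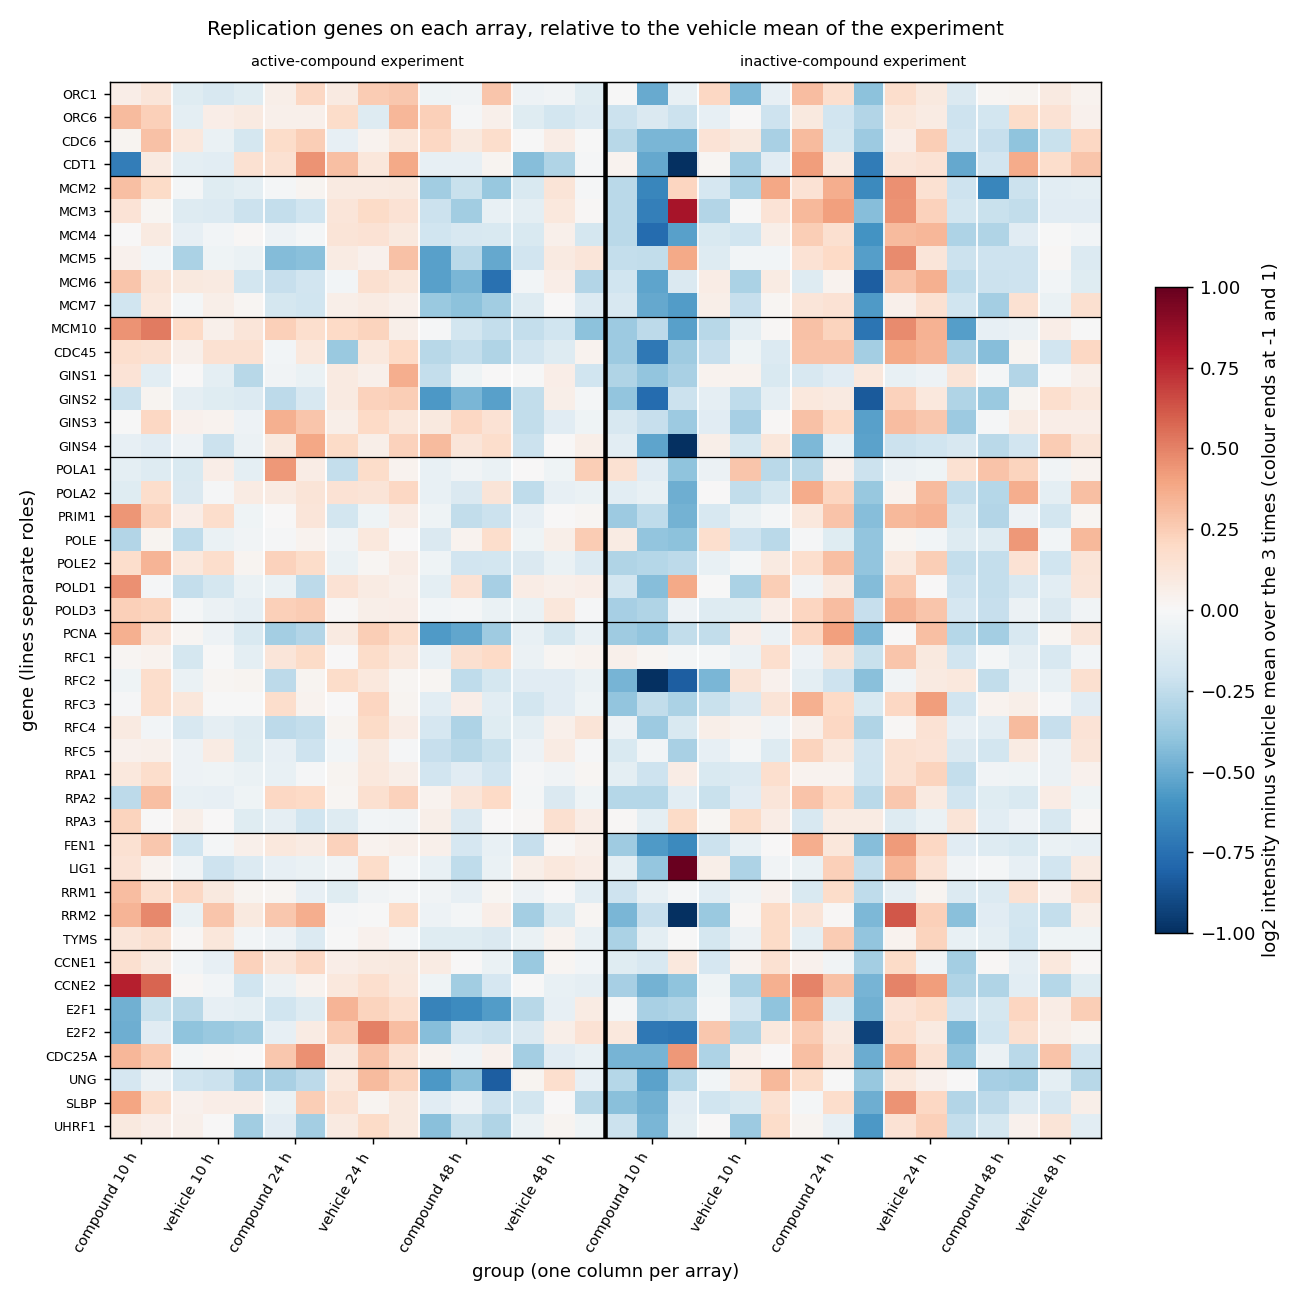
Heat map of 45 genes (vertical, grouped by role) on 32 arrays (horizontal, 1 column per array), as log2 intensity minus the mean of the vehicle arrays of the same experiment over the 3 times. Among active-compound arrays CCNE2 and MCM10 were red at 10 h, and MCM5, MCM6, MCM7, PCNA, GINS2, E2F1 and UNG were blue at 48 h, while the inactive-compound experiment had single arrays that were blue or red over many genes.

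Under the active compound the replication genes changed in both directions, a few at a time. At 10 h, 40 of the 45 genes had a positive log2 change against vehicle, with a median of 0.14, beside 5273 of all 10598 genes and a median of 0.00. Only cyclin E2 (CCNE2) and MCM10 were called higher at an adjusted p under 0.05 (limma, Benjamini-Hochberg over all genes), beside 0.547% of all genes called higher, and 0 were called lower, beside 1.1% of all genes. At 24 h, 7 fell, beside 0.783% of all genes called lower, and 0 rose, beside 1.13% called higher. At 48 h, 9 fell, beside 4.86% of all genes called lower, and 1 rose, beside 4.93% called higher. The median change of the 45 was -0.08 at both later times. Of the 45 genes 24, or 53.3%, had a positive change at 10 h and a negative one at 24 h, as did 24.1% of all genes, and the comparisons share no array. The 5 genes that were called lower at both 24 and 48 h were MCM5, GINS2, PCNA, E2F1 and UNG, which is 71.4% of the 24 h calls and 50% of the 10 calls at 48 h. The share of all genes called lower at both times is not given here, so this overlap does not set the 45 genes apart. A negative change at both times, called or not, was found in 53.3% of the 45 genes and in 33.7% of all genes. In bulk RNA, fewer cells in a phase of the cell cycle and less RNA per cell cannot be told apart.

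These counts rest on the spread within the active-compound experiment and on few arrays. In a fit of all 32 arrays together, where the noisier experiment shares the estimate of the spread, 0, 0 and 1 of the 45 genes were called at 10, 24 and 48 h. At 10 h, 1 gene, CCNE2, was called without the vehicle array on the other time's side, and the median was then 0.11. At 24 h, 0 were called without active-compound replicate 1 and 1 without replicate 2.

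**Figure D2:**
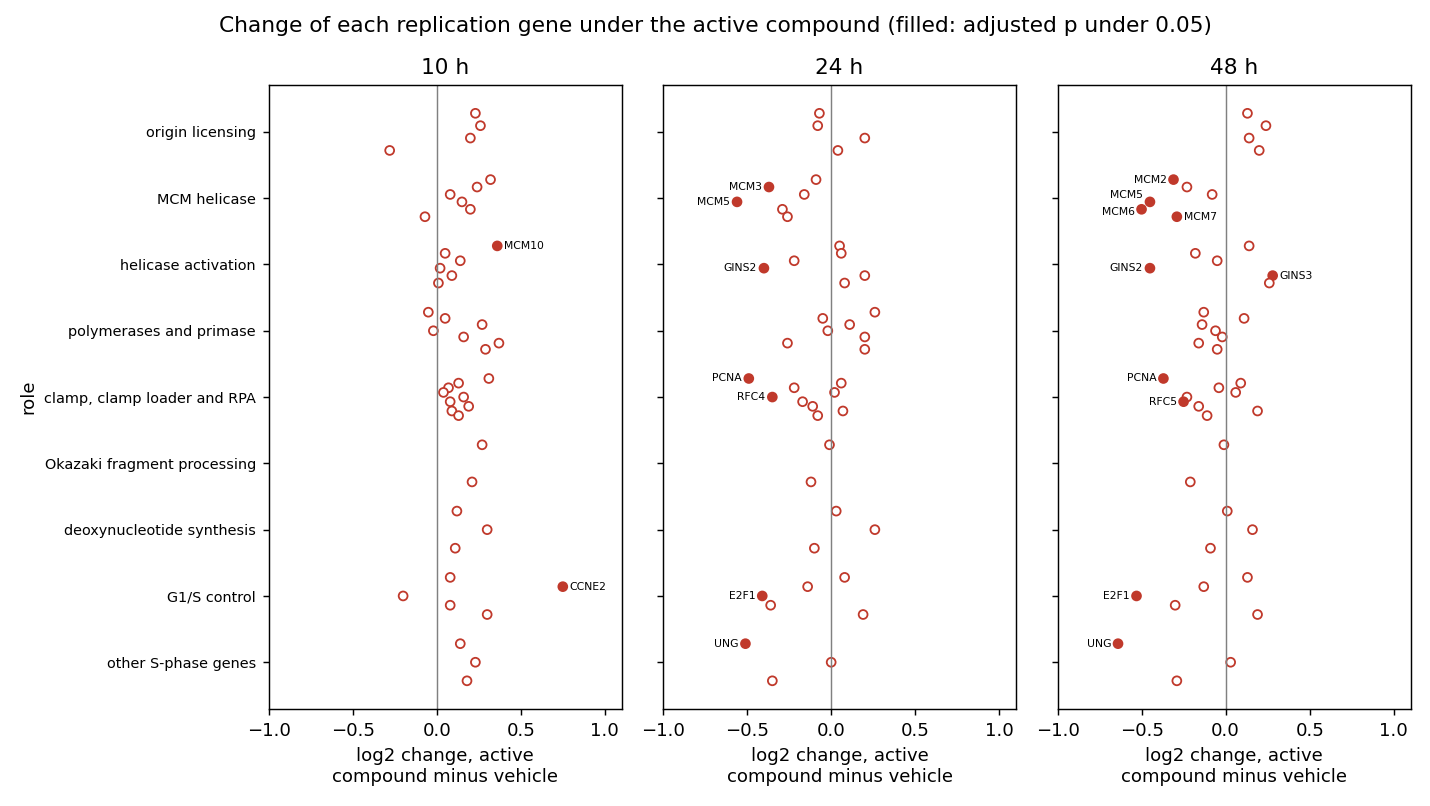
Log2 change of each gene, active compound minus vehicle (horizontal), by role (vertical), with 1 panel per time; filled points passed an adjusted p of 0.05 and are named. Nearly all points lay right of 0 at 10 h, whereas the 6 MCM subunits lay left of 0 at 24 and 48 h and the 4 origin licensing genes lay right of 0 at 48 h.

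The regulators of S-phase entry held the largest early rise. CCNE2, cyclin E2, which activates CDK2 at the G1/S border, read 9.68 and 9.48 log2 units after 10 h of the active compound, against 8.91, 8.87 and 8.70 in vehicle cells. Both treated arrays lay above every vehicle array, and the rise was 1.68-fold (log2 change 0.75, SE 0.10, adjusted p = 5.35e-05). At 24 h CCNE2 read 8.84 and 8.94 in treated cells, against 9.01, 9.07 and 9.01 in vehicle cells, a change of -0.14 that did not pass (adjusted p = 0.585). Its change at 48 h was -0.13 (adjusted p = 0.385). The paralog CCNE1 did not pass at any time, with changes of 0.08, 0.08 and 0.13 at 10, 24 and 48 h (adjusted p = 0.743, 0.832 and 0.452). At 10 h it read 7.66 and 7.59 in treated cells, against 7.47, 7.42 and 7.73 in vehicle cells, with overlapping groups.

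E2F1, the transcription factor that switches on many of these genes, fell at the later times. At 24 h it read 8.96 and 9.03 in treated cells, against 9.50, 9.38 and 9.33 in vehicle cells. At 48 h it read 8.49, 8.53 and 8.60 in treated cells, against 8.88, 9.08 and 9.24 in vehicle cells. At both times every treated array lay below every vehicle array, and E2F1 fell by 0.41 at 24 h (SE 0.11, adjusted p = 0.0408) and by 0.53 at 48 h (SE 0.09, adjusted p = 0.000577). The call of E2F1 was kept in 6 of 17 alternatives of processing or arrays at 24 h and in 17 of 18 at 48 h. Its change at 10 h was -0.20 (SE 0.11, adjusted p = 0.344), with the groups overlapping. E2F1 alone among the 45 genes was lower in all 7 pairs of treated and vehicle arrays of the same time and run. The run was read from the letters that end the sample titles. Over all genes 4.88% were lower in all 7 pairs, so this count does not set the 45 genes apart. E2F2, a close relative, had changes of -0.36 at 24 h and -0.30 at 48 h (adjusted p = 0.12 and 0.0646). CDC25A, the phosphatase that releases the brake on CDK2, had positive changes of 0.30, 0.19 and 0.19 at 10, 24 and 48 h, and passed only on average over the times (0.23, SE 0.05, adjusted p = 0.0057).

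**Figure D3:**
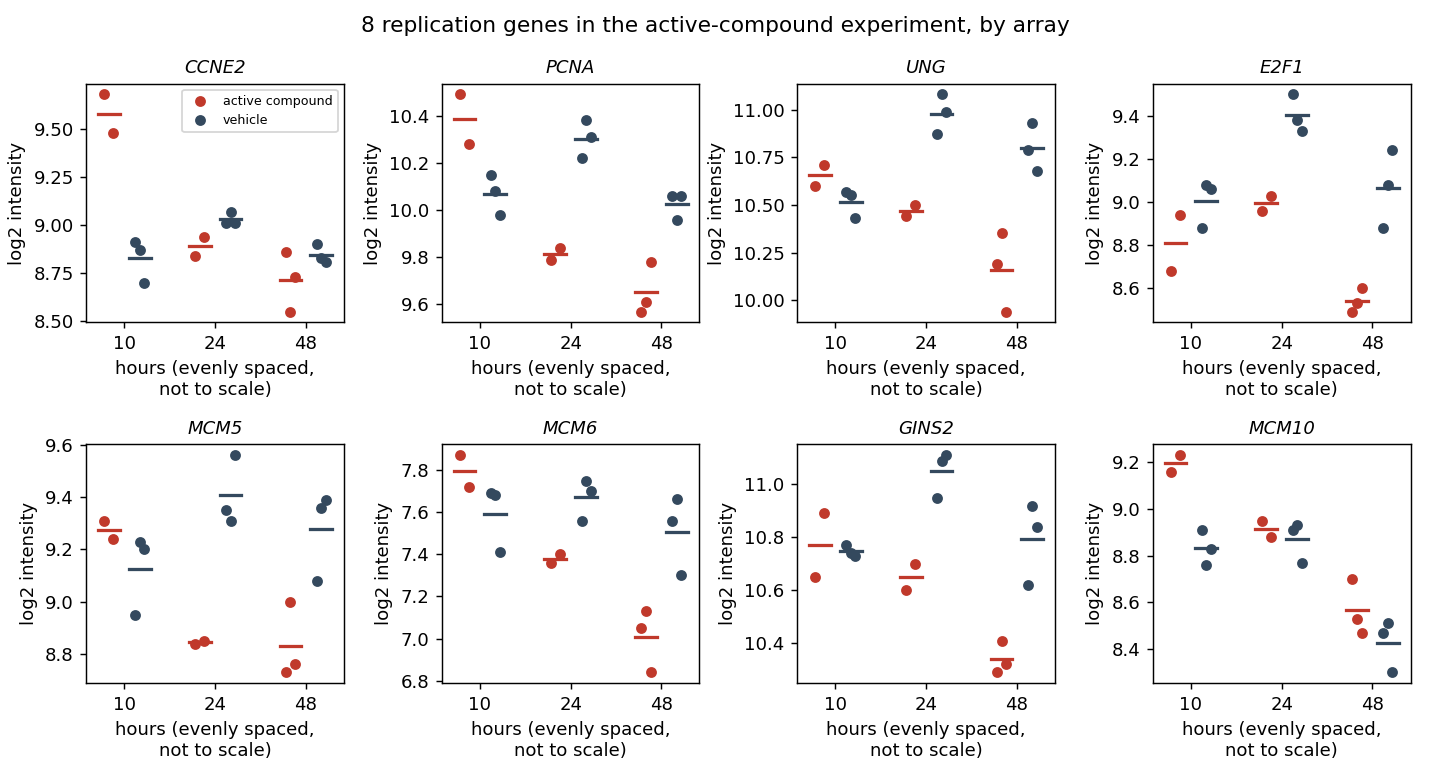
Log2 intensity (vertical) of 8 genes on each array of the active-compound experiment by time (horizontal), with treated arrays in red left of vehicle arrays in dark blue, and bars for group means. CCNE2 and MCM10 were above vehicle at 10 h, and PCNA, UNG, E2F1, MCM5, MCM6 and GINS2 were below vehicle on every array at 48 h.

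The 6 subunits of the MCM helicase, MCM2 to MCM7, which unwinds DNA at the fork, were all negative at 24 and at 48 h. Their median change was -0.27 at 24 h and -0.30 at 48 h, whereas at 10 h 5 of the 6 were positive with a median of 0.17. At 24 h 2 of them fell, MCM5 and MCM3, and at 48 h 4 fell, MCM2, MCM5, MCM6 and MCM7. MCM5 read 8.84 and 8.85 in treated cells at 24 h, against 9.35, 9.31 and 9.56 in vehicle cells, and 8.73, 9.00 and 8.76 in treated cells at 48 h, against 9.08, 9.36 and 9.39 in vehicle cells. The groups did not overlap at either time, with changes of -0.56 (SE 0.11, adjusted p = 0.00754) and -0.45 (SE 0.10, adjusted p = 0.0047). MCM6 read 7.05, 7.13 and 6.84 in treated cells at 48 h, against 7.56, 7.66 and 7.30 in vehicle cells. It fell by 0.50 (SE 0.10, adjusted p = 0.00187), again with no overlap, after -0.29 at 24 h (adjusted p = 0.251). MCM2 read 10.00 and 9.89 in treated cells at 10 h, against 9.68, 9.58 and 9.60 in vehicle cells, a change of 0.32 that did not pass (SE 0.09, adjusted p = 0.0675). At 48 h MCM2 read 9.35, 9.48 and 9.32 in treated cells, against 9.55, 9.83 and 9.69 in vehicle cells. The order of the groups was thus turned, and MCM2 fell at 48 h, by 1.24-fold (-0.31, SE 0.08, adjusted p = 0.0137). MCM3 read 10.35 and 10.39 in treated cells at 24 h, against 10.71, 10.78 and 10.73 in vehicle cells (-0.37, SE 0.09, adjusted p = 0.0343). This call was kept in 7 of 17 alternatives of processing or arrays. MCM7 read 11.56, 11.52 and 11.58 in treated cells at 48 h, against 11.80, 11.93 and 11.79 in vehicle cells (-0.29, SE 0.08, adjusted p = 0.0215), and its other probe had a change of -0.42. MCM4 did not pass at any time, with changes of 0.08, -0.16 and -0.08 at 10, 24 and 48 h.

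None of the 4 genes that load the helicase passed at a single time. At 48 h the changes of ORC1, ORC6, CDC6 and CDT1, which put MCM rings on origins, were 0.13, 0.24, 0.14 and 0.20, and these values did not pass (adjusted p = 0.377, 0.131, 0.365 and 0.417). CDC6, the ATPase that recruits the helicase, read 7.26, 7.15 and 7.23 in treated cells at 48 h, against 7.05, 7.13 and 7.05 in vehicle cells. The treated arrays lay just above the vehicle arrays at 48 h and overlapped them at 10 h, where its change was 0.20, as it was at 24 h. CDC6 passed only on average over the times (0.18, SE 0.05, adjusted p = 0.0356). CDT1, the partner of CDC6, had changes of -0.28 and 0.04 at 10 and 24 h (adjusted p = 0.379 and 0.952). At 10 h CDT1 read 9.23 and 10.01 in treated cells, against 9.82, 9.81 and 10.07 in vehicle cells. The first treated array stood far below the other, and without it the change was 0.11.

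Among the factors that activate the helicase, GINS2 and GINS3, subunits of the same complex, moved in opposite directions. GINS2 read 10.60 and 10.70 in treated cells at 24 h, against 10.95, 11.09 and 11.11 in vehicle cells, and 10.29, 10.41 and 10.32 in treated cells at 48 h, against 10.62, 10.92 and 10.84 in vehicle cells. It fell by 0.40 (SE 0.10, adjusted p = 0.0316) and by 0.45 (SE 0.09, adjusted p = 0.00126), with no overlap. The call of GINS2 was kept in 9 of 17 alternatives of processing or arrays at 24 h and in 17 of 18 at 48 h. GINS3 read 10.02, 10.13 and 10.07 in treated cells at 48 h, against 9.68, 9.81 and 9.88 in vehicle cells. It rose by 0.28 (SE 0.08, adjusted p = 0.0283), also with no overlap, and GINS4 was at 0.26 (adjusted p = 0.0778). The call of GINS3 was kept in 11 of 18 alternatives. MCM10, which binds the activated helicase, read 9.16 and 9.23 in treated cells at 10 h, against 8.91, 8.76 and 8.83 in vehicle cells (0.36, SE 0.09, adjusted p = 0.0479). Treated arrays were above vehicle arrays, but this call lay at the threshold and was lost without any of the 5 arrays in turn. Its changes at 24 and 48 h were 0.05 and 0.14. CDC45 and GINS1 did not pass at any time, their changes lying between -0.22 and 0.14.

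PCNA, the clamp that holds polymerases on DNA, fell at 24 and 48 h. At 10 h it read 10.49 and 10.28 in treated cells, against 10.15, 10.08 and 9.98 in vehicle cells, a change of 0.31 that did not pass (SE 0.09, adjusted p = 0.0837). At 24 h it read 9.79 and 9.84 in treated cells, against 10.22, 10.38 and 10.31 in vehicle cells. At 48 h it read 9.57, 9.61 and 9.78 in treated cells, against 10.06, 9.96 and 10.06 in vehicle cells. The groups were apart at all 3 times, and PCNA fell by 0.49 at 24 h (SE 0.09, adjusted p = 0.00427) and by 0.37 at 48 h (SE 0.08, adjusted p = 0.00463). Of the 5 subunits of the clamp loader, RFC4 fell by 0.35 at 24 h (SE 0.09, adjusted p = 0.0464) and was at -0.23 at 48 h, while RFC5 fell by 0.25 at 48 h (SE 0.08, adjusted p = 0.0416). RFC4 read 10.62 and 10.64 in treated cells at 24 h, against 10.91, 11.07 and 10.95 in vehicle cells. RFC5 read 10.68, 10.63 and 10.69 in treated cells at 48 h, against 10.86, 10.99 and 10.90 in vehicle cells. Neither pair of groups overlapped, but the call of RFC4 was kept in 6 of 17 alternatives of processing or arrays and that of RFC5 in 6 of 18. RFC1, RFC2, RFC3 and the 3 subunits of RPA, which coats single-stranded DNA, did not pass at any time. The 2 probes of RFC2 had opposite signs under the active compound at 10 h (0.07 and -0.16) and 48 h (-0.04 and 0.24), so no direction is given for that gene under this compound.

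The replicative polymerases gave no call at a single time. None of POLA1, POLA2, PRIM1, POLE, POLE2, POLD1 and POLD3 passed at any single time, with changes from -0.16 to 0.11 at 48 h. POLD1 and POLD3, subunits of polymerase delta, had changes of 0.37 and 0.29 at 10 h (adjusted p = 0.115 and 0.0682). POLD3 passed on average over the times (0.14, SE 0.04, adjusted p = 0.0404). FEN1 and LIG1, which trim and join Okazaki fragments, had changes of 0.27 and 0.21 at 10 h and of -0.01 and -0.21 at 48 h, and neither passed. None of the 3 genes of deoxynucleotide synthesis passed at a single time. RRM2, the regulated subunit of ribonucleotide reductase, read 11.54 and 11.68 in treated cells at 10 h, against 11.14, 11.48 and 11.30 in vehicle cells, and its changes were 0.30, 0.26 and 0.16 at 10, 24 and 48 h (adjusted p = 0.145, 0.307 and 0.346). RRM2 and MCM10 were the only 2 replication genes that were higher in all 7 pairs of treated and vehicle arrays. This held for 4.05% of all genes, so the count does not set the replication genes apart. RRM2 passed on average over the times (0.24, SE 0.06, adjusted p = 0.0118). RRM1 and TYMS, thymidylate synthase, had changes between -0.10 and 0.12 and did not pass.

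UNG, which removes uracil from DNA behind the fork, fell at 24 and 48 h, and at 48 h its change was the most negative of the 45 genes. It read 10.44 and 10.50 in treated cells at 24 h, against 10.87, 11.08 and 10.99 in vehicle cells. At 48 h it read 10.19, 10.35 and 9.94 in treated cells, against 10.79, 10.93 and 10.68 in vehicle cells. Every treated array lay below every vehicle array, with a fall of 0.51 at 24 h (SE 0.11, adjusted p = 0.0108) and of 0.64, or 1.56-fold, at 48 h (SE 0.10, adjusted p = 9.09e-05). The call at 48 h was kept in all 18 alternatives, the fit of all 32 arrays included. At 10 h the brightest probe of UNG was at 0.14 (adjusted p = 0.542) and its other probe at -0.20, so that no direction is given there, whereas the other probe was at -0.32 and -0.46 at 24 and 48 h. UHRF1, which keeps DNA methylation through replication, read 11.83, 12.03 and 11.95 in treated cells at 48 h, against 12.18, 12.28 and 12.21 in vehicle cells. Its changes of 0.18, -0.35 and -0.29 at 10, 24 and 48 h did not pass (adjusted p = 0.382, 0.103 and 0.0577). The groups did not overlap at any time, but with so few arrays a group a lack of overlap is not a test. SLBP, which binds histone messenger RNA, was at 0.23, 0.00 and 0.03 and did not pass.

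On average over the 3 times, 6 of the 45 genes were higher, beside 5.41% of all genes, and 7 were lower, beside 5.5% of all genes. The higher ones were CDC25A, RRM2, GINS3, MCM10, CDC6 and POLD3, and the lower ones were E2F1, UNG, GINS2, MCM5, MCM7, PCNA and MCM6. Among the lower ones E2F1 had the largest mean change (-0.38, SE 0.06, adjusted p = 0.000153), followed by UNG at -0.34. MCM6 and MCM7 were both at -0.20. The calls of E2F1 and UNG were kept in all 28 alternatives of processing or arrays, those of MCM6 and POLD3 in 11 each and that of CDC6 in 14. The remaining calls were kept in 20 (MCM10) to 27 of the 28. In the fit of all 32 arrays 2 of these 13 calls were left, those of E2F1 and UNG. Without the vehicle array on the other time's side 12 genes were called.

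The change of the effect with time was tested directly as the active-minus-vehicle difference at 48 h minus that at 10 h. It was negative for 38 of the 45 genes, with a median of -0.22 beside -0.01 for all genes, and 9 genes passed with a lower effect at 48 h, beside 2.23% of all genes, and 0 with a higher effect, beside 2.89%. They were CCNE2, PCNA, UNG, MCM2, MCM3, MCM5, MCM6, GINS2 and LIG1. The call of LIG1 was kept in 8 of 23 alternatives of processing or arrays and that of GINS2 in 10, whereas those of CCNE2, PCNA and UNG were kept in 22. CCNE2 had the largest difference (-0.88, SE 0.13, adjusted p = 0.000208), and PCNA had -0.69 (SE 0.12, adjusted p = 0.00204). From 10 to 24 h, a comparison added after the values had been seen, 5 genes passed with a lower effect, beside 0.208% of all genes, and 0 with a higher one, beside 0.51%. They were CCNE2, PCNA, MCM5, UNG and MCM3. The call of UNG was kept in 7 of 22 alternatives and those of MCM3 and MCM5 in 12 each, whereas those of CCNE2 and PCNA were kept in 21. The difference for PCNA was -0.80 (SE 0.13, adjusted p = 0.00197). The differences for UNG, -0.78 at 48 h and -0.65 at 24 h, rest on the 10 h value of its brightest probe. They were -0.26 and -0.12 on its other probe. Both comparisons use the same 10 h arrays, among them the vehicle array on the other time's side. Without that array 6 genes passed for 48 h minus 10 h and 3 for 24 h minus 10 h. In the fit of all 32 arrays 0 passed in either.

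**Figure D4:**
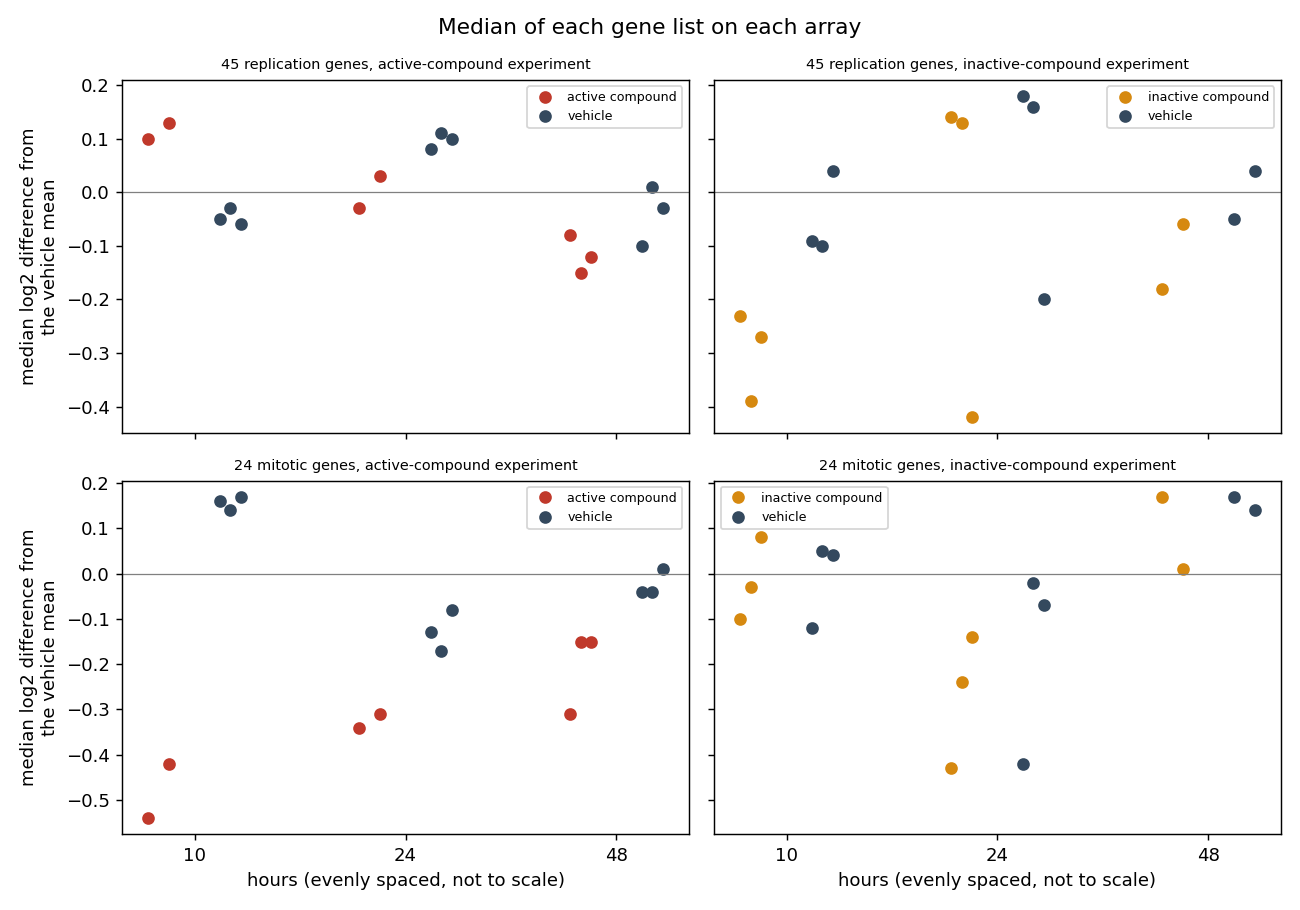
Median log2 difference from the vehicle mean of the experiment (vertical) for the 45 replication genes (upper panels) and 24 mitotic genes (lower panels) on each array by time (horizontal), with compound arrays left of vehicle arrays. At 10 h the active-compound arrays lay above vehicle for the replication genes (0.10 and 0.13) and below vehicle for the mitotic genes (-0.54 and -0.42).

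Vehicle cells of the active-compound experiment also changed with time, and falls at 24 h were measured against these arrays. From 10 to 24 h in vehicle cells 38 of the 45 genes had a positive change, with a median of 0.15, and 3 rose, beside 0.51% of all genes called higher, while 0 fell, beside 0.793% called lower. Those that rose were E2F2 (0.73, SE 0.10, adjusted p = 0.00043), UNG (0.46, SE 0.10, adjusted p = 0.0149) and E2F1 (0.40, SE 0.09, adjusted p = 0.0282). Without the vehicle array on the other time's side 2 genes were called and the median was 0.14. E2F2 read 10.01, 10.26 and 10.06 in vehicle cells at 24 h, against 9.35, 9.38 and 9.41 in vehicle cells at 10 h. From 24 to 48 h the median was -0.16 and 0 genes rose, beside 1.59% of all genes, while 3 fell, beside 1.27%, MCM10 by 0.45, CDC25A by 0.35 and E2F1 by 0.34 (adjusted p = 0.00344, 0.0191 and 0.0489). The levels show both parts for UNG: treated cells averaged 10.47 ± 0.04 (SD, n = 2) at 24 h and 10.65 ± 0.08 (SD, n = 2) at 10 h, whereas vehicle cells averaged 10.98 ± 0.11 (SD, n = 3) at 24 h and 10.51 ± 0.08 (SD, n = 3) at 10 h. For PCNA treated cells averaged 9.82 ± 0.03 (SD, n = 2) at 24 h and 10.39 ± 0.15 (SD, n = 2) at 10 h, against vehicle means of 10.31 ± 0.08 at 24 h and 10.07 ± 0.09 at 10 h (SD, n = 3 each). Under median scaling in place of quantile normalization the median change of all genes from 10 to 24 h was -0.07 and that of the 45 genes 0.04, with 1 gene called. In vehicle cells of the inactive-compound experiment 0 genes were called from 10 to 48 h, with a median of 0.04 for the 45 genes, and 0 with a median of 0.12 without the 4 arrays (limma, with 240 of all genes and 0 of the 45 at an unadjusted p under 0.05 over all arrays).

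Other genes of the cell cycle were set beside these, in lists that were also chosen with earlier results of these data known. All 24 mitotic genes were negative at 10 h with a median of -0.60, and 17 of them fell, those with the smallest p being CENPA (-0.99), PSRC1 (-1.10), CCNB2 (-0.88) and HMMR (-0.90), beside 1.1% of all genes called lower. At 24 h 7 of the 24 fell and at 48 h 8 did. The shares of all genes called lower at these times are given above, and the share at 48 h was the larger. Of 28 further replication proteins, GMNN, the inhibitor of CDT1, and RECQL4, a helicase of origin firing, rose at 10 h by 0.40 and 0.45 (adjusted p = 0.0425 and 0.024), and TOP2A, topoisomerase II alpha, fell by 0.39 (adjusted p = 0.038). At 24 h 0 of these 28 passed and at 48 h TOP2A alone did, with a fall of 0.41. Of 26 cyclin D, CDK, RB and E2F genes, CDKN1A, the inhibitor p21 of cyclin-dependent kinases, had a change of -0.26 at 10 h (adjusted p = 0.214) and rose by 1.05 at 24 h and by 1.11 at 48 h (adjusted p = 2.11e-06 and 6.11e-08). SKP2, which marks p21 for degradation, fell by 0.52 at 48 h (adjusted p = 9.47e-05), and CDKN2D fell by 0.33 (adjusted p = 0.00897). CCND1, cyclin D1, was at 0.05, -0.06 and -0.07 and did not pass. Of 9 genes of nucleotide supply DUT, which removes dUTP, fell at 48 h by 0.30 (adjusted p = 0.0282), and of 12 S-phase checkpoint genes 0 passed at any single time (limma, where 1, 2 and 1 of them had an unadjusted p under 0.05 at the 3 times). The part of the mitotic genes and of CDKN1A in the changes of the replication genes was not tested.

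In the inactive-compound experiment no replication gene passed the test at any time, although nearly all lay below vehicle. The 45 genes had medians of -0.20, -0.11 and -0.09 at 10, 24 and 48 h, and of -0.12 on average over the times, beside 0.00 for all genes each time. On average 44 of the 45 were negative, beside 5363 of 10598 genes. At 24 h the median ran from -0.23 to 0.08 when 1 array was left out at a time, so its sign there was not stable. Limma called 0 of the 45 and 0 of all genes, or 0%, in each of these comparisons, with 6, 1, 0 and 6 of the 45 at an unadjusted p under 0.05, beside 4.93%, 1.04%, 1.46% and 4.25% of all genes. RFC2, a subunit of the clamp loader, read 7.82, 7.11 and 7.46 in treated cells at 10 h, against 7.83, 8.42 and 8.33 in vehicle cells. The arrays barely separated, and its change was -0.73 (SE 0.18, 95% interval -1.10 to -0.36, adjusted p = 0.956), against -0.21 on its other probe. UNG read 10.67, 10.42 and 10.67 in treated cells at 10 h, against 10.93, 11.06 and 11.28 in vehicle cells (-0.50, SE 0.14, adjusted p = 0.956), and its other probe was at -0.19. MCM7 was at -0.36 on its brightest probe at 10 h and at -1.38 on its other probe. GINS4 and GINS1 had changes of -0.69 and -0.31 at 10 h (adjusted p = 0.956 for both). GINS4 read 8.28, 7.86 and 6.95 in treated cells, against 8.45, 8.21 and 8.50 in vehicle cells, with overlapping groups and 1 low array, which is among the 4 in doubt. Without those 4 arrays the changes at 10 h were -0.66 for RFC2, -0.45 for UNG, -0.26 for GINS4 and -0.38 for GINS1. At 24 h the smallest p belonged to MCM6, RFC2, UHRF1 and SLBP (-0.43, -0.29, -0.26 and -0.24, adjusted p = 1 for each), and at 48 h to GINS4, CDC6, PCNA and POLA1 (-0.42, -0.31, -0.32 and 0.25, adjusted p = 1 for each).

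Treated and vehicle arrays of the same time and run deviated together in this experiment, and with the 8 pairs as a block limma called 0 of the 45 genes in each comparison. At an unadjusted p under 0.05, 21 of the 45 were then lower at 10 h, beside 5.91% of all genes, 3 at 24 h (1.87%), 1 at 48 h (2.09%) and 20 on average (5.45%). Without the 4 arrays in doubt, which form 2 of the pairs, the counts were 11 at 10 h (4.71%), 2 at 24 h (2.04%), 3 at 48 h (2.64%) and 13 on average (5.27%). The block changed the count over all genes on average, which was 10 with the pairs and 0 without them. MCM6 had the smallest p on average (-0.27, SE 0.06, adjusted p = 0.13). Its treated-minus-vehicle differences in the 8 pairs ran from -0.57 to -0.10. In all 8 pairs 10 of the 45 genes were lower, beside 2.03% of all genes: MCM4, MCM6, MCM10, CDC45, GINS1, GINS2, PRIM1, RFC2, FEN1 and SLBP. In the 6 pairs outside the arrays in doubt these 10 and CDC25A were lower, beside 3.92% of all genes. Leaving out the 4 arrays in doubt gave 0 called genes. The medians of the 45 were then -0.16, -0.06 and -0.09 at the 3 times and -0.12 over them, and 42, 31, 40 and 43 genes were negative.

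**Figure D5:**
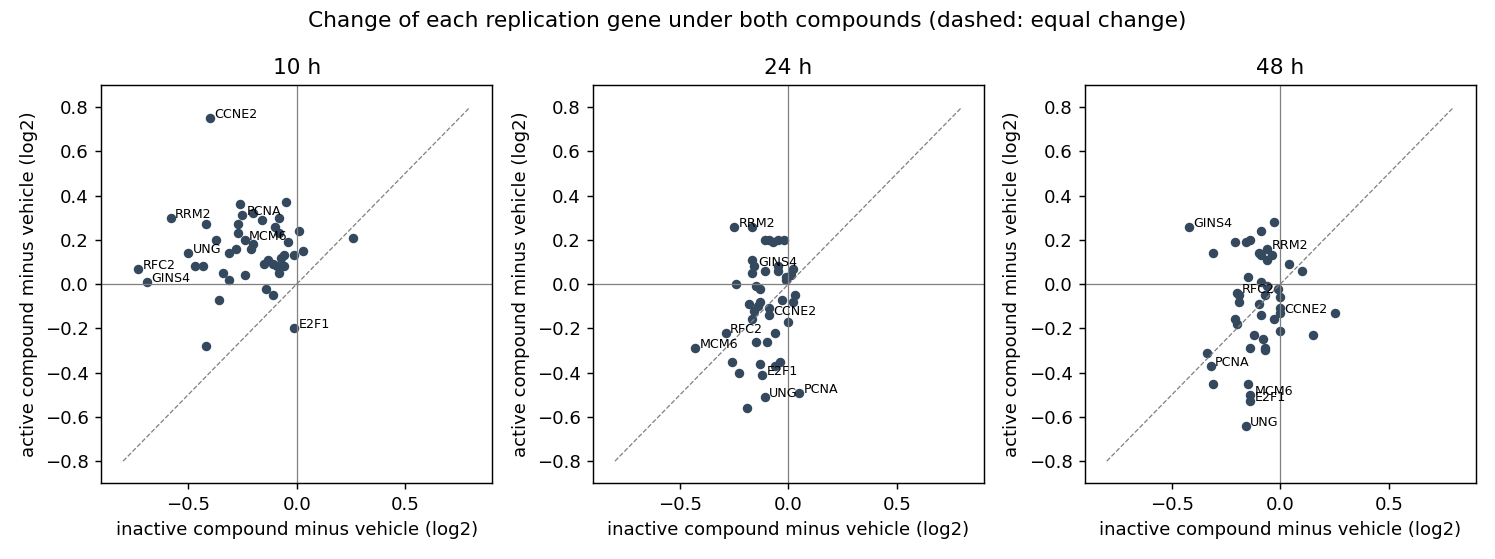
Log2 change of each of the 45 genes under the active compound (vertical) against that under the inactive compound (horizontal), each minus its own vehicle, with 1 panel per time and equal change on the dashed line. At 10 h most genes lay above and left of 0, with CCNE2 at 0.75 and -0.40, and at 48 h UNG, E2F1, MCM6 and PCNA lay below 0 under both compounds.

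As named in the labels, the compounds differ by the hydroperoxy group of the active one, and their effects were compared at times matched by label with p-values adjusted over all genes in each of 4 comparisons. Each compound had its own experiment, so compound and experiment cannot be told apart, and the time match at 10 and 24 h rests on the labels of the arrays in doubt. None of the 45 genes passed at any time or on average, beside 0.0189%, 0.0283%, 0.0189% and 0.179% of all genes. At 10 h the effect of the active compound was the higher for 43 of the 45 genes, with a median difference of 0.37 beside 0.00 for all genes, and 17 were at an unadjusted p under 0.05 by limma, beside 6.81% of all genes. Without the 4 arrays in doubt the median was 0.40. CCNE2 changed by 0.75 under the active compound and by -0.40 under the inactive one. The difference was 1.15 (95% interval 0.67 to 1.64, adjusted p = 0.0545). Without the 4 arrays the difference for CCNE2 was 0.97 and it passed (SE 0.18, adjusted p = 0.0182). Over all arrays RFC2, FEN1 and UNG were next in order of p, with 0.80, 0.69 and 0.64 (adjusted p = 0.215, 0.344 and 0.359). The other probes of RFC2 and UNG gave 0.05 and -0.01. By size on the brightest probes RRM2 followed CCNE2, with a difference of 0.88 that did not pass. The 2 probes of MCM7 disagreed widely in size, with 0.29 on the brightest and 1.34 on the other. The intervals of 28 of the 45 genes held 0 at this time.

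With the complete pairs of treated and vehicle arrays of both experiments as a block, an alternative added after the values had been seen, CCNE2 passed at 10 h (1.09, 95% interval 0.78 to 1.41, adjusted p = 0.00238), beside 0.217% of all genes. With the pairs 0 of the 45 passed at 24 h, beside 0.264%, and 0 at 48 h, beside 0.793%, and 4 and 8 of the 45 were at an unadjusted p under 0.05, beside 7.18% and 11% of all genes. On average MCM10 passed (0.37, adjusted p = 0.0285), beside 1.42%. With the pairs and without the 4 arrays in doubt, CCNE2 passed at 10 h (0.91, adjusted p = 0.0114), beside 0.226%, 0 genes passed at 24 h, beside 0.198%, and GINS4 passed at 48 h (0.68, adjusted p = 0.0461), beside 1.38%. On average RRM2 and CDC25A then passed (0.42 and 0.41, adjusted p = 0.0228 and 0.0352), beside 1.7%, while MCM10 did not. These calls thus moved with the arrays kept, except that of CCNE2.

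At 24 and 48 h the median differences were 0.04 and 0.01 without the block. Leaving out 1 array at a time gave -0.11 to 0.16 at 24 h and -0.10 to 0.09 at 48 h, and without the 4 arrays in doubt the medians were -0.01 and 0.01, so that no direction is given. The intervals of 43 of the 45 genes held 0 at each time. At 24 h PCNA and UNG had intervals below 0 (-0.94 to -0.13 and -0.78 to -0.01), and with the pairs as a block 41 intervals held 0 at 24 h and 37 at 48 h. At 48 h UNG was again below 0 (-0.48, interval -0.92 to -0.05, adjusted p = 0.893, and -0.20 on its other probe) and GINS4 above 0 (0.68, interval 0.12 to 1.24, adjusted p = 0.802). Without the block, genes that fell under the active compound at 48 h had wide intervals for the difference: -0.90 to 0.19 for MCM6, -0.88 to 0.11 for E2F1, -0.67 to 0.39 for GINS2 and -0.52 to 0.41 for PCNA. With the pairs as a block they were -0.63 to -0.09 for MCM6, -0.72 to -0.05 for E2F1, -0.50 to 0.23 for GINS2 and -0.37 to 0.26 for PCNA. MCM6 and E2F1 thus lay below 0 with the block but did not pass (limma, adjusted p = 0.267 and 0.369). The widths over the 45 genes without the block ran from 0.68 to 1.61 log2 units at 48 h. These arrays thus neither show a difference between the compounds for most replication genes at the later times nor show that they act alike.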

How the data were processed

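PC-3 cells were profiled on 32 Illumina bead arrays in 12 groups. The authors deposited probe intensity values that were not yet normalized, and a table of their processed log2 values, for which the sources used here name no normalization. BeadStudio and R 2.12.0 are named, per the submitters' processing notes. The deposited log2 table ranked probes as the intensities did (Spearman at least 0.999 on each array) and served as an alternative. Its array medians were 7.43 to 7.44 in the active-compound experiment and 7.32 to 7.34 in the other, so its values are on a log2 scale of expression, not ratios.

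Background was corrected by normexp with an offset of 50, log2 was taken, and arrays were then brought to a common distribution by quantiles over all 32. The brightest 60% of probes by mean were kept, and each gene was read from its brightest probe. Of 20589 probes 18332 carried 1 gene symbol and 2257 had none here. Groups were fitted in limma 3.58.1 (R 4.3.3) within each experiment of 16 arrays, with Benjamini-Hochberg adjustment over 10598 genes and a threshold of 0.05. The difference between the compounds was fitted on all 32 arrays with array weights by experiment. The limma fit of each compound against vehicle at 48 h was tested on simulated data with independent noise. The other steps were not tested in this way. No array was identical to another, and the number of arrays limits the precision.

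Runs were read from the order of the letters that end the sample titles. Deviations from the group means were correlated between the treated and the vehicle array of the same time and run. The correlations were between 0.16 and 0.69 in the 8 inactive-compound pairs and between -0.04 and 0.25 in the 7 active-compound pairs. The main fits of both experiments, and of the difference between the compounds, used no block for the pairs. Results with the pairs as a block are alternatives and are named as such. For the difference between the compounds that block held the complete pairs of both experiments.

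The 45 genes and the other lists were chosen with earlier results of these data known. Values are given for each gene called under the active compound (up to 12 a comparison, by size), otherwise for the 4 with the smallest p, and always for CCNE1, CCNE2, E2F1, CDC6, CDT1, MCM2, PCNA, RRM2, UNG and UHRF1. Of other lists up to 4 called genes were named by p, with CDKN1A and CCND1 always. Further genes were named after their values were seen.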

Additional observations from a re-analysis of the deposited data

Results flagged for a closer look

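The effect of the active compound differed between times for 14 results, by a limma test of the difference itself with Benjamini-Hochberg adjustment over all genes. From 10 to 48 h the effect was lower by -0.88 (SE 0.13) for CCNE2, -0.78 (SE 0.14) for UNG, -0.70 (SE 0.15) for MCM6, -0.69 (SE 0.12) for PCNA and -0.63 (SE 0.12) for MCM2. It was lower by -0.59 (SE 0.15) for MCM5, -0.47 (SE 0.13) for GINS2, -0.46 (SE 0.12) for MCM3 and -0.42 (SE 0.12) for LIG1. Adjusted p for these 9 lay between 0.000208 (CCNE2) and 0.0456 (LIG1).

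From 10 to 24 h the effect was lower by -0.89 (SE 0.14) for CCNE2, -0.80 (SE 0.13) for PCNA, -0.71 (SE 0.16) for MCM5, -0.65 (SE 0.15) for UNG and -0.60 (SE 0.13) for MCM3, with adjusted p between 0.000942 (CCNE2) and 0.0415 (UNG). Both sets use the same 10 h arrays. The part of the vehicle array at 10 h that lay on the side of 24 h was measured by leaving it out, which left 6 and 3 of these calls. The UNG differences were -0.26 (from 10 to 48 h) and -0.12 (from 10 to 24 h) on the other probe of the gene.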

How the results depend on the processing

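All counts here are of the 45 genes. At 10 h (2 called) there were 4 called without background correction and among the brightest 40% of probes, 1 with an offset of 16, median scaling, quantiles within each experiment, no filter, the replicate block or the run as a block, and 0 in the fit of all 32 arrays. At 24 h (7) there were 3 with an offset of 16 or no filter, 1 with median scaling and 0 in the fit of all arrays. At 48 h (10) there were 5 with median scaling and 1 in the fit of all arrays. On average (13) there were 7 with median scaling, 8 with no filter and 2 in the fit of all arrays. For 48 h minus 10 h (9) there were 15 without background correction and in the brightest 40%, 4 with median scaling, 5 with no filter and 0 in the fit of all arrays. For 24 h minus 10 h (5) there were 2 with an offset of 16 or no filter, 3 with median scaling or quantiles within each experiment and 0 in the fit of all arrays. In vehicle cells from 10 to 24 h (3) there were 5 without background correction, in the authors' deposited values, in the brightest 40% or with a trended robust fit, 6 with the run as a block, 1 with median scaling and 0 in the fit of all arrays. From 24 to 48 h (3) there were 6 without background correction, 5 in the brightest 40%, 7 with the run as a block, 1 with no filter and 0 with median scaling or in the fit of all arrays. Between the compounds at 10 h (0) there was 1 without background correction, with quantiles within each experiment, in the authors' deposited values, in the brightest 40%, with a trended robust fit, without the 4 arrays, or with the replicate block of pairs, with or without the 4 arrays. At 48 h (0) there was 1 with that block without the 4 arrays. On average (0) there was 1 with that block and 2 with it without the 4 arrays. The block for this difference was added after the values had been seen. Median scaling moved the split of higher and lower calls over all genes to 42 and 28 at 10 h (58 and 117), 319 and 147 at 48 h (523 and 515) and 400 and 168 on average (573 and 583).

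Leaving out 1 array at a time gave 1 to 5 calls at 10 h, 0 to 4 at 24 h, 6 to 10 at 48 h, 7 to 14 on average, 5 to 12 for 48 h minus 10 h, 2 to 7 for 24 h minus 10 h, 1 to 2 and 1 to 4 in vehicle cells, 0 under the inactive compound, and 0 to 1 between the compounds at 10 h and on average. At 10 h 5 were called without active-compound replicate 2 and 1 without any other array. At 24 h 4, 2 and 3 were called without vehicle replicates 1, 2 and 3. At 48 h 6 were called without vehicle replicate 2, and on average 7 without active-compound replicate 1 at 24 h. For 48 h minus 10 h 5 were called without active-compound replicate 1 at 10 h or vehicle replicate 2 at 48 h. For 24 h minus 10 h 2 were called without active-compound replicate 1 at 10 h or either at 24 h, and 3 without vehicle replicates 1 or 3 at 10 h or 2 or 3 at 24 h. In vehicle cells 1 was called from 10 to 24 h without replicate 2 at 10 h or 2 or 3 at 24 h, and 1 from 24 to 48 h without replicate 3 at 24 h or 1 at 48 h. Between the compounds 1 was called at 10 h without active-compound replicate 2, and 1 on average without inactive-compound replicate 1 at 10 or 24 h.

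For CDT1, leaving out 1 array gave -0.67 (without active-compound replicate 2) to 0.11 (without active-compound replicate 1) at 10 h. At 24 h it gave -0.11 (without active-compound replicate 2) to 0.19 (without active-compound replicate 1), with -0.04 without vehicle replicate 2, and the run as a block gave -0.03. UNG at 10 h turned to -0.03 when probes were averaged. In the active-compound experiment the replicate block kept 37 of 46 calls. It could not be fitted for the vehicle arrays, whose pairs each hold 1 of them. The causes of these shifts were not tested.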
